A study of Mus musculus with 12 samples.

Results

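Contactins are cell adhesion molecules of the immunoglobulin superfamily that are held to the membrane by a lipid anchor, and contactin-associated proteins (Caspr proteins) are transmembrane relatives of the neurexins. The expression of 9 genes of these 2 families was followed here in dorsal root ganglia (DRG): the contactins Cntn1, Cntn2, Cntn3, Cntn4, Cntn5 and Cntn6 and the contactin-associated protein genes Cntnap1, Cntnap2 and Cntnap4. They are 9 of the 24490 genes in the deposited expression table and were found by gene symbol. They had been chosen with their values in these samples in view, so their levels and differences are given as a description, without p-values.

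In myelinated axons, contactin-1 and Caspr form a complex at the paranode, the zone beside the node of Ranvier where the loops of the Schwann cell meet the axon. There they bind glial neurofascin. Caspr2 and contactin-2, also called TAG-1, assemble in the adjoining juxtaparanode with voltage-gated potassium channels. The other contactins are known mainly from axon growth, branching and synapse formation, and they bind partners such as amyloid precursor proteins, L1 family molecules and receptor tyrosine phosphatases.

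RNA came from adult male C57Bl/6 mice, and 4 samples were sequenced from each of 3 groups. Intact DRG were frozen directly, with 1 mouse per sample. Acutely dissociated, unsorted DRG were digested with enzymes and triturated, with material of 2 mice pooled per sample. MACS-sorted DRG came from 8 pooled mice per sample and had also passed a magnetic column, which held back cells labelled by a cocktail of antibodies against non-neuronal cells. The samples were taken directly ex vivo, and the study used the sorted preparation as a model of nociceptors, the neurons that detect painful stimuli. Values are FPKM, fragments per kilobase of transcript scaled to the mapped fragments of the library, so that levels of different genes can be set side by side.

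Some samples stood apart from the rest of their group. Intact replicate 1 differed from the other intact samples by a root mean square of 0.649 to 0.682 on the log2 scale over 8263 genes, against 0.292 to 0.312 among the other intact samples. Its summed FPKM of 6 skeletal muscle markers was 2494, against 13.7 to 55.1 in the other intact samples. All 9 genes were lower in it than in the other 3 intact samples, with a median over the genes of 69.2% of their mean. Among MACS-sorted samples, the summed FPKM of red blood cell markers was 1670, 2527, 12530 and 15320, against at most 399 in unsorted samples. Library depth, which was estimated from the steps between low FPKM values, lay between 13300000 and 19100000 fragments.

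The genes differ in size and in the sequence before their starts. Of the 9 genes, 7 span more than 250 kb, whereas 2.87% of all genes in the table do and the median span is 14.0 kb. Cntnap2 is the longest, with 2241 kb on chromosome 6 of mm10, and Cntnap1 the shortest, with 14.6 kb on chromosome 11. Promoter windows of 250 bases before the transcription start were read from RefSeq (GRCm38.p6) and had an entry for 7 of the 9 genes. The windows of Cntn1 and Cntnap2, which fell in MACS-sorted samples, and of Cntn2 and Cntn3, which did not, are shown to place the sequences beside the values that follow. Capitals mark matches to the searched motifs.
Cntn1, chr15:92050915-92051164, plus strand: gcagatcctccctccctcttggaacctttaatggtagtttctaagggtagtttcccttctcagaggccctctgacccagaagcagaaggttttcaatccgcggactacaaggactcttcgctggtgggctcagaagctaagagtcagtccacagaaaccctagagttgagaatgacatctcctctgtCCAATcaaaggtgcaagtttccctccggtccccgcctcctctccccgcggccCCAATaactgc
Cntnap2, chr6:45059811-45060060, plus strand: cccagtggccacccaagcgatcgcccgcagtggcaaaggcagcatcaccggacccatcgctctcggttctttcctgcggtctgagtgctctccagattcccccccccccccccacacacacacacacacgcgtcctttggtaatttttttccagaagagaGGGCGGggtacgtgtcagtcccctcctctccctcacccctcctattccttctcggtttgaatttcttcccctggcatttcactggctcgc
Cntn2, chr1:132542941-132543190, minus strand: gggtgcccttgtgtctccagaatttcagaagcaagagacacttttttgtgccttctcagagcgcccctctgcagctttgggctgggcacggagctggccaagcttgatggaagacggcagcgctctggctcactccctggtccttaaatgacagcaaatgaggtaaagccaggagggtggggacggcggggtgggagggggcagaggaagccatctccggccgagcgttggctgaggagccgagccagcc
Cntn3, chr6:102464668-102464917, minus strand: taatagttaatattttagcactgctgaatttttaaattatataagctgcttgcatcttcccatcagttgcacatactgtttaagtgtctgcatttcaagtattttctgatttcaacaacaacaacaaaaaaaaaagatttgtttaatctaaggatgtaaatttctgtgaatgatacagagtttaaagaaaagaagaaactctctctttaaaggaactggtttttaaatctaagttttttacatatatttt

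The motifs searched on both strands were GGGCGG (the GC box), CCAAT (the CCAAT box), TATAAA (the TATA box), CACGTG (an E-box), TGACG (core of the cyclic AMP response element) and TGTGGT (core of the Runx site). The Cntn1 window holds CCAAT 63 and 11 bases before the start, and 33.9% of all 32851 windows of that length hold CCAAT at least once. The Cntnap2 window holds GGGCGG 90 bases before the start, as do 32.7% of all windows anywhere in their length. The windows of Cntn2 and Cntn3 hold none of the 6 motifs. The matches printed do not overlap one another. The windows are those at the deposited gene starts. RefSeq lists 2 further starts for Cntn1 and 1 for Cntnap2 inside the genes, whose windows are not shown and hold other matches, among them CCAAT in the further Cntnap2 window and no GGGCGG. GC content was 53.6% for Cntn1, 59.6% for Cntnap2, 61.2% for Cntn2 and 26.4% for Cntn3, against a median of 52.4% over all windows.

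Cntn1 (chr15:92051165-92341967, mm10), which encodes the contactin of the paranode, was the highest of the 9 genes in intact and in unsorted DRG. Its FPKM in replicates 1 to 4 was 47.9, 89.0, 90.9 and 78.8 in intact DRG, a mean of 76.7 ± 19.9 (SD, n = 4). In unsorted DRG it was 109.6, 108.1, 108.0 and 108.2, a mean of 108.5 ± 0.739 (SD, n = 4). In MACS-sorted DRG it was 26.4, 23.9, 27.2 and 24.5, a mean of 25.5 ± 1.56 (SD, n = 4). All MACS-sorted samples lay below all others, and the mean was 4.26-fold lower than in unsorted DRG. On the log2(FPKM + 0.1) scale, on which all log2 differences are given, this was a difference of -2.09 (standard error 0.06). Unsorted samples all lay above intact samples, by 0.54 on the same scale (standard error 0.18), which fell to 0.33 without intact replicate 1.

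Cntnap1 (chr11:101176117-101190720) encodes Caspr, the axonal partner of contactin-1 at the paranode. Its FPKM was 13.7, 28.7, 32.2 and 28.9 in intact DRG, 40.6, 40.4, 49.0 and 41.0 in unsorted DRG and 10.9, 10.9, 12.04 and 10.5 in MACS-sorted DRG. The group means were 25.9 ± 8.30, 42.7 ± 4.21 and 11.1 ± 0.66 (SD, n = 4 each). As with Cntn1, the unsorted samples were the highest, the MACS-sorted samples the lowest, and no groups overlapped. MACS-sorted samples differed from unsorted samples by -1.93 on the log2 scale (standard error 0.08), and their mean was 3.85-fold lower. Between unsorted and intact samples it was 0.79 (standard error 0.24) and fell to 0.51 without intact replicate 1.

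Both genes fell to a similar extent on sorting, and the mean ratio of Cntnap1 to Cntn1 within a sample was 0.394 before and 0.436 after it. Intact samples held 0.285 to 0.367, unsorted samples 0.370 to 0.454 and MACS-sorted samples 0.414 to 0.457. The unsorted and MACS-sorted ranges overlapped, and the highest unsorted ratio belonged to replicate 3. All intact samples lay below all unsorted and MACS-sorted samples.

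Cntn2 (chr1:132509425-132542940), the gene of contactin-2, behaved otherwise. Its FPKM was 31.7, 30.3, 36.4 and 32.3 in unsorted DRG and 30.0, 35.9, 31.6 and 33.4 in MACS-sorted DRG, with means of 32.7 ± 2.63 and 32.7 ± 2.52 (SD, n = 4 each). The samples of these groups were interleaved, and the log2 difference was 0.00 with a standard error of 0.08. In intact DRG it was 15.7, 26.0, 27.8 and 25.6. All unsorted samples lay above these, by 0.49 on the log2 scale (standard error 0.17), or 0.30 without intact replicate 1.

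Cntnap2 (chr6:45060061-47301371) encodes Caspr2, which pairs with contactin-2 at the juxtaparanode. Its FPKM was 21.0, 30.2, 32.3 and 28.7 in intact DRG, 41.7, 42.1, 45.1 and 43.3 in unsorted DRG and 19.6, 12.9, 16.5 and 12.5 in MACS-sorted DRG. The MACS-sorted samples were the lowest of the 12 and the unsorted samples the highest. MACS-sorted samples differed from unsorted samples by -1.50 on the log2 scale (standard error 0.13), and their mean was 2.80-fold lower. Unsorted samples differed from intact samples by 0.63 (standard error 0.13), or 0.50 without intact replicate 1.

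The 2 genes of the juxtaparanodal complex therefore stood in different proportions after sorting. The ratio of Cntnap2 to Cntn2 came to 1.20 ± 0.0969 in intact DRG, to 1.32 ± 0.0634 in unsorted DRG and to 0.478 ± 0.138 after sorting (SD, n = 4 each). Its highest MACS-sorted value, 0.653, lay below its lowest value in any other sample, 1.12. The ratio of Cntn2 to Cntn1 moved in the other direction, from 0.301 ± 0.0250 in unsorted samples to 1.29 ± 0.174 in MACS-sorted samples (SD, n = 4 each). Cntn1 exceeded Cntn2 in every intact and unsorted sample, and Cntn2 exceeded Cntn1 in every MACS-sorted sample.

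**Figure D1:**
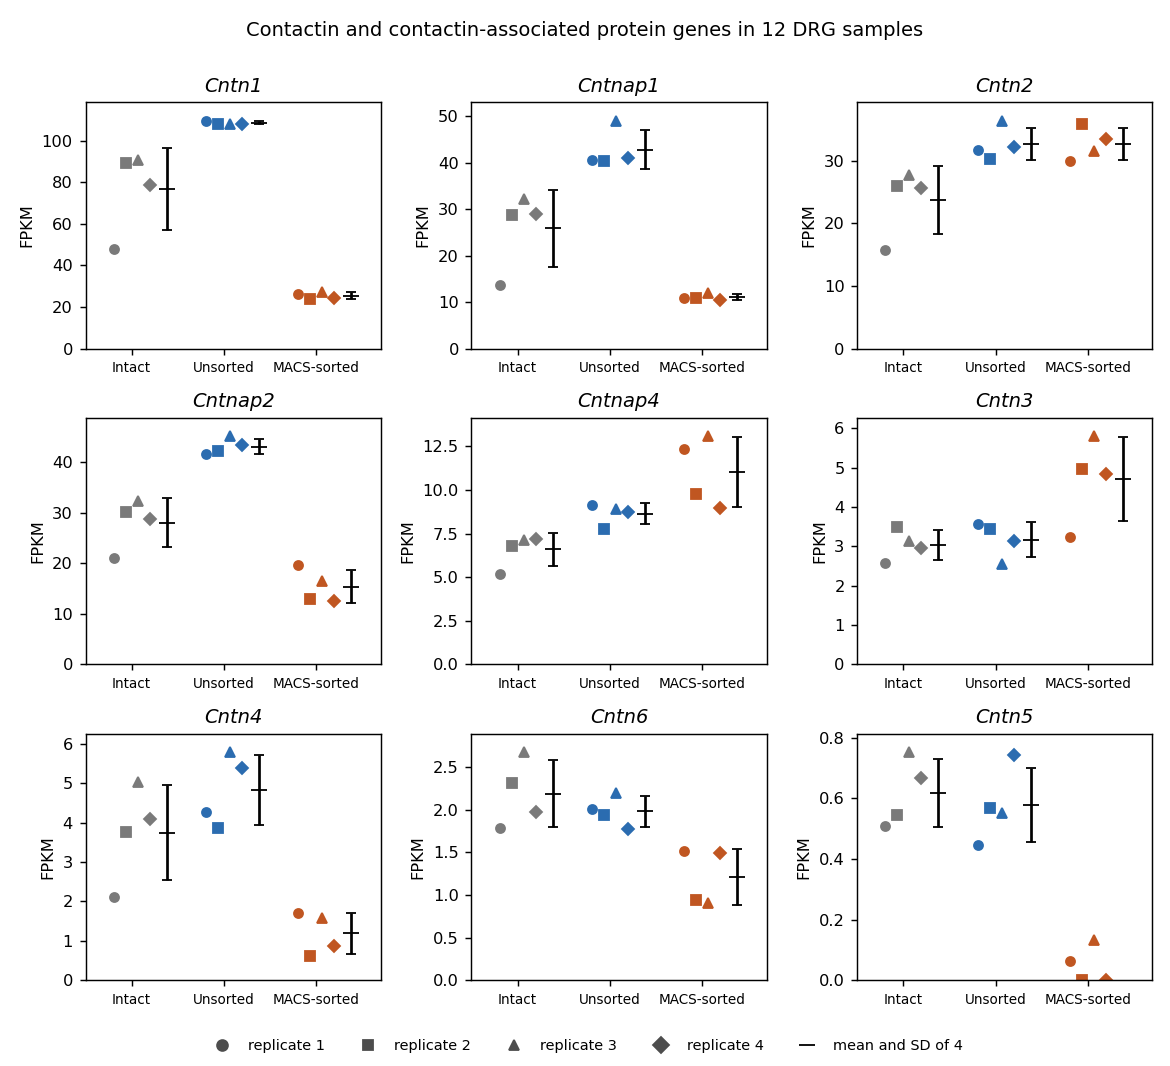
FPKM of the 9 genes (vertical axes, linear from 0, a scale per gene) in intact, unsorted and MACS-sorted DRG. Symbols are the replicates, and bars the mean and SD of 4 samples, left out for Cntn5 after sorting, where 2 samples are listed at 0. Cntn1, Cntnap1 and Cntnap2 are lowest in MACS-sorted samples, Cntn2 lies at 30.0 to 35.9 there against 30.3 to 36.4 in unsorted samples, and intact replicate 1 is the lowest intact sample in each panel.

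**Figure D2:**
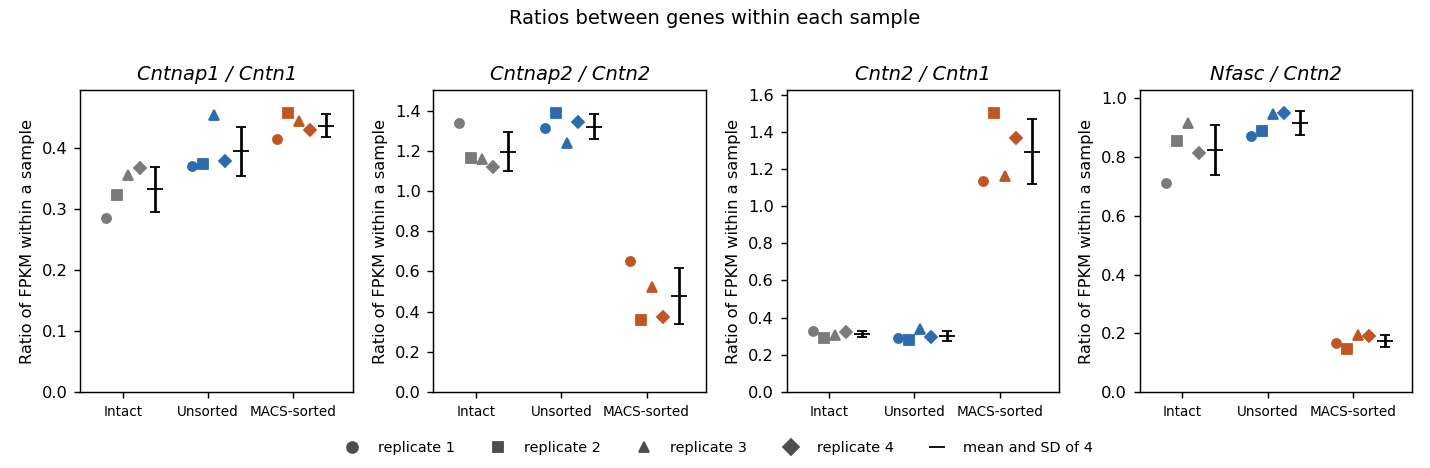
Ratio of FPKM of a pair of genes within each sample (vertical axes, from 0), with the mean and SD of 4 samples. Cntnap1 to Cntn1 stays between 0.285 and 0.457 in all samples, whereas Cntnap2 to Cntn2 and Nfasc to Cntn2 are lower and Cntn2 to Cntn1 is higher in every MACS-sorted sample than in every other sample.

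Cntnap4 (chr8:112570043-112882707) encodes Caspr4, which is known from synapses of inhibitory interneurons. Its FPKM was 5.21, 6.81, 7.13 and 7.19 in intact DRG, 9.14, 7.75, 8.93 and 8.73 in unsorted DRG and 12.4, 9.74, 13.1 and 8.95 in MACS-sorted DRG. MACS-sorted replicate 4 lay inside the unsorted range and the other 3 above it. The log2 difference of sorted from unsorted samples was 0.33 (standard error 0.13), and that of unsorted from intact samples, which did not overlap, was 0.39 (standard error 0.11). The ratio of Cntnap4 to Cntnap2 lay at 0.184 to 0.219 before and at 0.629 to 0.793 after sorting.

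Cntn3 (chr6:102163306-102464667) was low throughout. Its FPKM was 2.58, 3.49, 3.13 and 2.95 in intact DRG, 3.57, 3.45, 2.55 and 3.14 in unsorted DRG and 3.24, 4.96, 5.79 and 4.84 in MACS-sorted DRG. MACS-sorted replicate 1 overlapped the unsorted samples, and the log2 difference was 0.54 (standard error 0.18). Cntn3 was not called, as its MACS-sorted mean, 4.71 FPKM, stayed under 5. It was called higher without MACS-sorted replicate 1 (0.70) and after quantile normalization (0.84). Between unsorted and intact samples the log2 difference was 0.06 (standard error 0.13), or -0.02 without intact replicate 1.

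Cntn4 (chr6:105677745-106699305) encodes a contactin that binds amyloid precursor protein. Its FPKM was 2.12, 3.77, 5.03 and 4.08 in intact DRG, 4.28, 3.87, 5.79 and 5.38 in unsorted DRG and 1.70, 0.621, 1.57 and 0.867 in MACS-sorted DRG. All MACS-sorted samples lay below all others, and the difference from unsorted samples was -2.02 (standard error 0.30), close to that of Cntn1 but at a lower level. It was not called because its unsorted mean, 4.83 FPKM, stayed under 5, and it was called lower without unsorted replicate 1 (-2.07) or 2 (-2.12).

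Cntn6 (chr6:104493044-104863405) had an FPKM of 1.79, 2.32, 2.68 and 1.97 in intact DRG, 2.01, 1.93, 2.20 and 1.77 in unsorted DRG and 1.51, 0.940, 0.906 and 1.49 in MACS-sorted DRG. The MACS-sorted samples were all below the others, by -0.70 on the log2 scale from unsorted samples (standard error 0.21). This value moved to -0.13 when the samples were quantile normalized.

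Cntn5 (chr9:9660891-10904775) was the lowest member. Its FPKM was 0.508 to 0.752 in intact and 0.446 to 0.744 in unsorted DRG. In MACS-sorted DRG it was 0.0634 in replicate 1 and 0.133 in replicate 3 and was listed at 0 in replicates 2 and 4. Its mean was under 1 FPKM in every group, so it was not tested.

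The order of the levels changed with sorting. In unsorted DRG it ran Cntn1, Cntnap2, Cntnap1, Cntn2, Cntnap4, Cntn4, Cntn3, Cntn6 and Cntn5, and of neighbours in this order only the ranges of Cntnap2 and Cntnap1 overlapped. Intact DRG had the same order, with overlapping ranges between Cntnap2 and Cntnap1, Cntnap1 and Cntn2, Cntn4 and Cntn3, and Cntn3 and Cntn6. In MACS-sorted DRG it ran Cntn2, Cntn1, Cntnap2, Cntnap1, Cntnap4, Cntn3, Cntn6, Cntn4 and Cntn5, with overlap between Cntnap1 and Cntnap4 and between Cntn6 and Cntn4. In each group Cntn1, Cntn2, Cntnap1, Cntnap2 and Cntnap4 exceeded 5 FPKM in all samples and the other 4 genes did not. The summed FPKM of the 9 genes came to 239 to 259 before and 97.1 to 109 after sorting, and Cntn1 supplied 41.8% to 45.3% and 23.9% to 25.2% of it.

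Across all genes, a gene was called when limma gave an adjusted p-value under 0.05, the log2 ratio of group means was beyond 0.5 and the mean of the higher group exceeded 5 FPKM. Of the 9 members, 8 reached a mean of 1 FPKM in the samples compared and were tested. Their calls rest on the same criteria, although their p-values are not given. Between MACS-sorted and unsorted samples, 3 of the 8 were called lower (Cntn1, Cntnap1 and Cntnap2) and 0 higher, where 12.5% of all 12038 tested genes were called lower and 8.15% higher, or 20.7% in either direction. All MACS-sorted samples lay below all unsorted samples for 5 of the 8, as for 27.8% of all tested genes, and 0 members lay wholly above, as 18.4% of tested genes did. The median log2 difference was -1.10 for the members and -0.04 for all tested genes. Since the members were picked from these values, nothing is read from these counts.

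Between unsorted and intact samples, 2 of the 8 tested members were called higher (Cntnap1 and Cntnap2), where 4.29% of 12392 tested genes were called higher and 7.04% in either direction. The 5 most abundant members had no overlap between groups, with all unsorted samples higher, as had 20.8% of all tested genes. The median log2 difference was 0.44 over the 8 members, against 0.01 over all tested genes. Without intact replicate 1 the same 2 members were called higher, where 3.2% of 12294 tested genes were called higher and 2.56% lower. All unsorted samples then lay above all intact samples for 5 members and for 26.3% of tested genes, and below them for 0 members and 17.3% of tested genes. The call of Cntnap1 was less steady than that of Cntnap2, since it held in 7 of 19 alternative settings and that of Cntnap2 in 19 of 19. As the members were picked from these values, nothing is read from these counts either. The call of Cntnap1 was lost without intact replicate 2 (0.86) or 4 (0.87) and without any of the unsorted replicates (0.72 to 0.82). Unsorted replicates 1 and 2 were close in marker sums (3197 and 3192 for satellite and other glia, against 2798 and 2646 in the others), although over 8263 genes their root mean square difference of 0.309 was not the smallest in the group, which was 0.285. With these samples averaged into 1, Cntnap1 was not called (0.82) and Cntnap2 was. The 2 comparisons share the unsorted samples. Cell type markers differed between unsorted and intact samples too. Of the large-diameter neuron markers 5 of 10 were called higher (median log2 difference 0.61, sums of 683 to 866 in intact and 948 to 1165 in unsorted samples). The sum of 866 belonged to intact replicate 1, where Pvalb was 441 FPKM, against 61.8 to 67.8 in the other intact samples. Apart from Pvalb, these markers were lower there than in the other intact samples, except Ldhb, which lay inside their range. Nefh was 221 FPKM in it, against 388 to 436 in the others. This sample also had the skeletal muscle marker sum of 2494, and the source of its Pvalb was not tested. Of the endothelial markers 5 of 6 were called higher (median 1.22). Of the fibroblast markers 5 of 6 were called lower (median -1.10) and of the macrophage markers 3 of 6 (median -1.29). Their part in the rise of the members and of the partner genes was not tested.

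Markers of several cell types moved with sorting as well, and in bulk samples fewer cells of a type and less RNA per cell cannot be told apart. The summed FPKM of 10 markers of large-diameter neurons fell from 948 to 1165 in unsorted samples to 108 to 187 in MACS-sorted samples, and 8 of the 10 were called lower. For 10 nociceptor markers the sum was 2611 to 2741 and 2976 to 4157, with 8 called higher and 1 lower. The sums of 8 pan-neuronal markers overlapped, at 4197 to 4531 and 3770 to 4841, although 3 of the markers lay wholly above and 2 wholly below the unsorted samples, with Avil (0.61) called higher and Snap25 (-0.94) called lower. Among glial lists, 9 of 10 markers of myelinating Schwann cells and 9 of 10 of satellite and other glia were called lower, with sums that went from 1995 to 3295 to 533 to 1229 and from 2646 to 3197 to 117 to 262. Of 6 fibroblast markers, 5 were called lower. Of 6 endothelial markers 0 were called, and their sums overlapped, at 40.5 to 52.7 before and 12.1 to 71.6 after sorting. None of these markers was listed at 0 in every sample of a group. Their part in the differences of the contactin and Caspr genes was not tested.

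**Figure D3:**
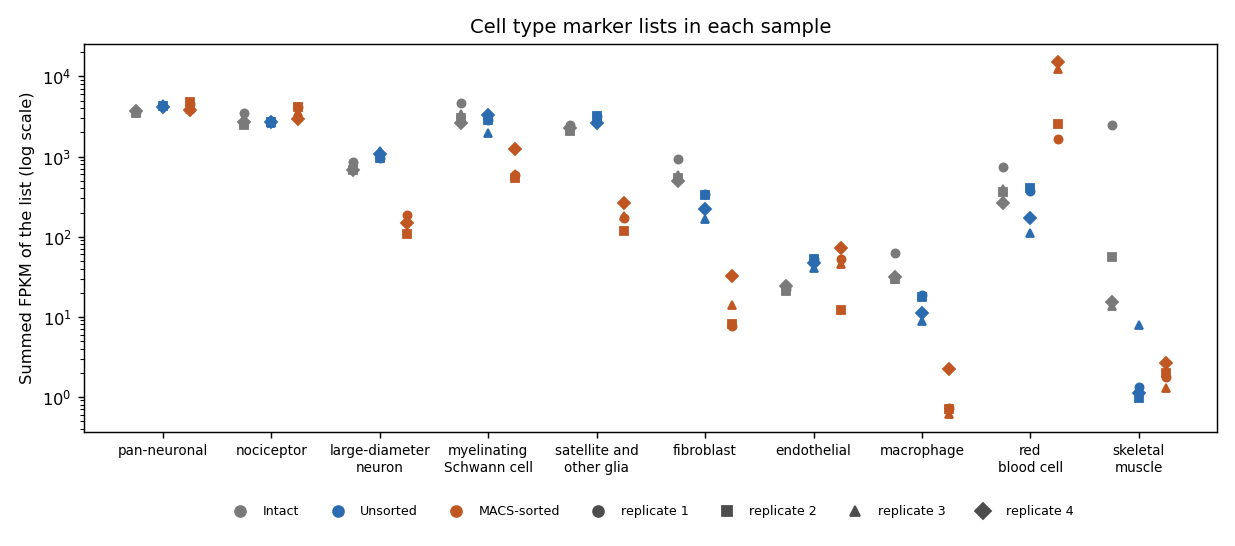
Summed FPKM (vertical axis, log scale) of 10 lists of cell type markers (horizontal axis) in each sample. Colours give the group and symbols the replicate. The MACS-sorted samples lie at 108 to 187 for large-diameter neurons, below 948 to 1165 in unsorted samples, and at 2976 to 4157 for nociceptors, above 2611 to 2741, and intact replicate 1 stands out for skeletal muscle at 2494.

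The partners of the paranodal complex included genes that fell as far as Cntn1. Nfasc, whose products are the glial receptor of the paranode and the axonal neurofascin of the node, had an FPKM of 27.6, 26.9, 34.5 and 30.7 in unsorted and 4.98, 5.27, 6.08 and 6.35 in MACS-sorted DRG. The groups lay far apart, with a log2 difference of -2.38 (standard error 0.11, adjusted p = 4.3e-07, limma with Benjamini-Hochberg adjustment over all tested genes, as for all adjusted p-values here). Per unit of Cntn2, Nfasc stood at 0.870 to 0.951 before and at 0.147 to 0.193 after sorting. Of the 10 genes of the node and paranode, 5 were called lower and 0 higher. Nrcam, another adhesion molecule of the node, fell by 1.98 on the log2 scale (standard error 0.10, adjusted p = 9.0e-07), and Gldn, which encodes the Schwann cell ligand gliomedin, by 3.87 (standard error 0.46, adjusted p = 1.1e-04). Epb41l3, whose product links Caspr to the cytoskeleton, fell by 0.77 (standard error 0.12, adjusted p = 4.8e-04).

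The scaffold genes of the node changed less. Sptbn4, the spectrin of nodes and initial segments, differed by -0.50 (standard error 0.11, adjusted p = 0.0054), just past the limit of 0.5, and was not called without unsorted replicate 3, where the difference was -0.40, or without MACS-sorted replicate 2 (-0.46) or 3 (-0.47). Ank3, the ankyrin that gathers sodium channels, differed by 0.48 (standard error 0.07, adjusted p = 2.6e-04), just inside that limit, with all MACS-sorted samples above all unsorted samples, and it was called higher without MACS-sorted replicate 2 (0.51). Rescaling also decided both calls. Under median-ratio size factors, quantile normalization and removal of red blood cell genes, Ank3 was called higher (0.54, 0.53 and 0.52) and Sptbn4 was not called (-0.44, -0.38 and -0.46). For Ank2 the difference was 0.07 (standard error 0.09, adjusted p = 0.54). The values were 37.3 to 43.1 FPKM in MACS-sorted and 27.2 to 29.4 FPKM in unsorted samples for Ank3.

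At the juxtaparanode, the potassium channel subunit genes fell, as Cntnap2 did. Kcna1 had an FPKM of 76.5, 76.4, 83.0 and 86.2 in unsorted and 9.63, 6.57, 10.3 and 11.1 in MACS-sorted DRG, and Kcna2 had 56.6, 55.7, 59.3 and 55.1 in unsorted and 17.9, 17.0, 20.8 and 20.3 in MACS-sorted DRG. Both genes encode subunits of voltage-gated potassium channels of the juxtaparanode. The log2 differences were -3.11 (standard error 0.15, adjusted p = 5.1e-07) and -1.58 (standard error 0.08, adjusted p = 6.2e-07). The ratio of Kcna1 to Kcna2 went from 1.35 to 1.57 before sorting to 0.385 to 0.550 after it, so the subunits did not fall in step. Kcnab2, the gene of a cytoplasmic subunit of these channels, differed by -0.46 (standard error 0.09, adjusted p = 0.0020) and was not called, except without MACS-sorted replicate 2 (-0.52).

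Of the 13 genes of the juxtaparanode and internode, 8 were called lower and 1 higher. Lgi3, whose product is a secreted ligand of Adam22 and Adam23 family proteins, fell by 3.41 (standard error 0.24, adjusted p = 5.0e-06) and Adam23 by 2.12 (standard error 0.10, adjusted p = 4.3e-07). Adam22 differed by -0.32 (standard error 0.06, adjusted p = 0.0017), under the limit. Among the nectin-like adhesion genes of the internode, Cadm4, the Schwann cell member, fell by 2.36 (standard error 0.10, adjusted p = 2.7e-07) and Cadm3, the axonal member, by 0.74 (standard error 0.07, adjusted p = 2.7e-05). Cadm1 was the gene called higher, with 94.1 to 109 FPKM before and 140 to 190 FPKM after sorting, a log2 difference of 0.76 (standard error 0.10, adjusted p = 2.7e-04).

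Of 15 genes of contactin ligands and receptors, 14 were tested and 6 were called lower and 1 higher. Ptprz1, a receptor tyrosine phosphatase that binds contactin-1, had 11.2 to 12.6 FPKM before and 0.467 to 0.777 FPKM after sorting, a log2 difference of -4.07 (standard error 0.15, adjusted p = 1.9e-07). Ptprg, a related receptor of some of the other contactins, had 11.8 to 13.3 and 12.7 to 17.6 FPKM and differed by 0.20 (standard error 0.11, adjusted p = 0.15). Chl1, an L1 family ligand of Cntn6 that lies between Cntn3 and Cntn6 on chromosome 6, fell by 0.69 (standard error 0.10, adjusted p = 3.9e-04), whereas L1cam itself differed by 0.39 (standard error 0.10, adjusted p = 0.013) and was not called. The amyloid precursor gene App, at 316 to 340 FPKM before and 287 to 376 FPKM after sorting, differed by 0.06 (standard error 0.09, adjusted p = 0.62). Mag, a myelin gene, was listed at 0 in MACS-sorted replicate 2 and had 0.259, 0.484 and 2.47 FPKM in the others, against 8.07 to 10.98 in unsorted samples. Tnc was below the limit for testing. Tnr, which encodes the matrix protein tenascin-R, had 1.98 to 2.76 FPKM before and 3.74 to 6.15 FPKM after sorting, a log2 difference of 1.06 (standard error 0.18, adjusted p = 0.0012). It was not called because its higher mean was 4.92 FPKM, and it was called higher under median-ratio size factors (1.12) and quantile normalization (1.42) and without MACS-sorted replicate 2 (1.14) or 4 (1.18).

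Scn2b, which encodes a beta subunit of sodium channels, was the gene of this list called higher. It rose from 15.1 to 16.8 FPKM to 50.1, 60.3, 18.8 and 43.9, by 1.33 on the log2 scale (standard error 0.30, adjusted p = 0.0052), with MACS-sorted replicate 3 close to the unsorted range. Intact samples had 33.1 to 35.9 FPKM of Scn2b, more than all unsorted samples, with a log2 difference between unsorted and intact samples of -1.12 (standard error 0.06, adjusted p = 4.1e-05).

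Over the 3 partner lists together, 19 of 37 tested genes were called lower and 2 higher between MACS-sorted and unsorted samples, with a median log2 difference of -0.50, against 12.5% and 8.15% of all tested genes and a median of -0.04. Between unsorted and intact samples 12 were called higher and 1, Scn2b, lower. The median was 0.41, against 4.29% and 2.76% of all tested genes and a median of 0.01. The partner lists were chosen with earlier results of these data known, so no excess over all genes is read from these counts. Lgi3 (0.92, standard error 0.19, adjusted p = 0.011) and Ptprz1 (0.91, standard error 0.12, adjusted p = 0.0025) rose most among those called. Without intact replicate 1, 6 were called higher, among them Lgi3, Notch1, Ptprz1, App and Ncam1, where 3.2% of all tested genes were. The other 6 then fell under the limit of 0.5, with Kcna1 at 0.43 and L1cam at 0.35. Without unsorted replicate 3, 6 were called higher as well. With unsorted replicates 1 and 2 averaged, 9 were called higher, since Kcna1, L1cam, Adgrl1 and Epb41l3 were lost and Cadm3 was gained. The calls of Lgi3, Ptprz1, App and Ncam1 held in all 19 alternatives, that of Kcna1 in 10 and that of L1cam in 5.

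The 4 further Caspr genes of the table were low. In unsorted samples Cntnap3 had 1.98 to 2.15 FPKM, Cntnap5a 3.03 to 3.90, Cntnap5b 1.14 to 1.76 and Cntnap5c 0.983 to 1.64. In MACS-sorted samples these were 0.547 to 0.906, 1.34 to 2.07, 0.177 to 0.367 and 0.632 to 1.36. The ranges of Cntnap5c overlapped and those of the other 3 did not, and Cntnap5b was too low on average to be tested. The log2 difference was -1.42 for Cntnap3 (standard error 0.20, adjusted p = 3.3e-04) and -1.001 for Cntnap5a (standard error 0.17, adjusted p = 0.0012), neither called because both means were under 5 FPKM.

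Some of these genes are neighbours in the genome. Cntn2 and Nfasc are neighbours on chromosome 1, 21.7 kb apart with no listed gene between them, and differed by 0.00 and -2.38 on the log2 scale between MACS-sorted and unsorted samples. Cntn3, Chl1, Cntn6 and Cntn4 lie in this order within 4.54 Mb of chromosome 6 and differed by 0.54, -0.69, -0.70 and -2.02.

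For the members, the genes with the most similar profile were found as the smallest root mean square difference of centred log2 values over the 12 samples, among 12282 genes. Cntn1 was closest to Adam23 (0.121), where the median over all genes was 0.942. This median differed by member and ran from 0.418 for Cntn2 to 1.004 for Cntn4. The smallest of 12282 distances lay far below it for every member compared, so a close gene was not particular to Cntn1. Cntnap1 was closest to Myh10 (0.0957) and Cntnap2 to Cpt1a (0.0970). Cntn2 was closest to Mast1 (0.0692), which had means of 37.0, 51.1 and 49.1 FPKM in the intact, unsorted and sorted groups. Cntnap4 was closest to Il6st (0.0948), Cntn3 to Raph1 (0.144) and Cntn4 to Tenm2 (0.166). These distances are descriptions, and the samples share their group differences across all genes.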

How the data were processed

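RNA from 12 samples of mouse DRG was sequenced as directional libraries of polyA-selected RNA. Per the labels, the tools of the authors were TopHat2 for alignment to mm10, SAMtools, and Cufflinks 2.1.1 for the estimates of expression. The deposited values are FPKM for 24490 genes, 1 value per gene and sample, and were used as deposited. No read counts were used, and depth was estimated with an assumed fragment length of 150 bases. All samples were grouped by their titles.

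Groups were compared with limma 3.58.1 (R 4.3.3) on log2(FPKM + 0.1), with a trend in the prior variance, over genes that averaged 1 FPKM or more in the 8 samples compared. Tests were two-sided with Benjamini-Hochberg adjustment. The criteria for a call follow the study's methods, where CuffDiff, which needs aligned reads, is replaced by limma. The procedure was tried on simulated MACS-sorted and unsorted samples, with normal noise of the same spread in both groups. Of 200 of the more abundant genes changed by 1 on the log2 scale, 93.5% were called in the right direction, and 5 unchanged genes were called. The simulation did not cover changes in low genes, unequal spread or the intact samples. Errors of FPKM and of ratios are SD over 4 samples, and those of log2 differences are standard errors from limma. The p-values set a difference of group means against the spread between samples, with variances drawn toward a trend over all genes. Samples held 1, 2 or 8 mice by group, so this spread is not that between mice in every group.

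The members and all gene lists were chosen with earlier results of these data known. Genes named are those of these lists and, for each member, the 3 with the closest profile. Some of these are left out of the text but were kept in every count. Samples with the same number did not deviate together (correlations from -0.157 to 0.0654), so no pairing was used. Gene starts were counted from 1. Figures were drawn with matplotlib 3.10.9.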

Additional observations from a re-analysis of the deposited data

Results flagged for a closer look

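Of 81 groups of 4 values examined for a sample far from the others, 4 held one, and chance gives about 1 in 20. Cntn1 was 109.6 FPKM in unsorted replicate 1, against 108.0 to 108.2 in the other unsorted samples. In unsorted replicate 3, Cntnap1 was 49.0 FPKM against 40.4 to 41.0 in the others, and the ratio of Cntnap1 to Cntn1 was 0.454 against 0.370 to 0.379. Gldn was 5.20 FPKM in intact replicate 4, against 6.91 to 7.18 in the other intact samples. None of the 4 was in intact replicate 1.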

How the results depend on the processing

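No called member changed direction in any alternative, and the sign of Cntn2, Cntn3 and Cntn6 turned only in comparisons where they lay close to 0. The members were picked from these values, so how often their calls held is a description and no test of them. The calls of Cntn1, Cntnap1 and Cntnap2 between MACS-sorted and unsorted samples held in all 19. Partner genes called higher between these groups numbered 2, and 4 after median-ratio size factors or quantile normalization and 2 to 4 when a replicate was left out. Between unsorted and intact samples, 12 partner genes were called higher, 7 after quantile normalization or after removal of red blood cell genes, and 6 to 12 with a replicate left out. Partner genes called lower numbered 1, with 2 under quantile normalization or the removal of red blood cell genes and 1 to 2 with a replicate left out. Of all genes, 531 were called higher and 342 lower, and 343 were called higher after that removal. With a replicate left out the lower calls ranged from 187 to 334. The causes were not tested.

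The replicate block gave 991 genes higher and 1516 lower between MACS-sorted and unsorted samples and 541 and 358 between unsorted and intact samples, against 981 and 1505 and 531 and 342 without it. Of the partner genes it changed the call of Nfasc, which became higher in unsorted than in intact samples. In 1 of 8 pairs checked did a sample correlate best with its own number. Depth was estimated, so no counting interval was given for low genes such as Cntn5.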
